A study of Mus musculus with 6 samples.

Results

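Small nucleolar RNA host genes are genes whose introns carry small nucleolar RNAs (snoRNAs), the guides that direct methylation and pseudouridylation of ribosomal RNA. The 10 host genes described here are Gas5, Zfas1, Snhg1, Snhg3, Snhg5, Snhg6, Snhg8, Snhg12, Snhg15 and Snhg18. Their rows were taken by symbol from the 54532 genes of the deposited table. The list was chosen with earlier results of these data known. Splicing releases the snoRNAs from the introns, and the joined exons form a noncoding transcript. Many of these transcripts begin with a C and a run of pyrimidines, the terminal oligopyrimidine start that ribosomal protein mRNAs carry and that links their use to growth signals through mTORC1. Although they encode no known protein, the spliced transcripts of several hosts, Gas5 among them, enter ribosomes and are then degraded by nonsense-mediated decay, so their level reflects both transcription and turnover.

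RNA was sequenced from whole tumors grown from mouse melanoma cells with mutant, active BRAF in both groups. The cells carried either a non-targeted control (NTC, the control tumors, n = 3) or Gli2CA, described in the study design as an active Gli2 mutation (n = 3), and were cultured with puromycin. Gli2 is a transcription factor of the Hedgehog pathway. They were injected into C57Bl/6 mice at 1000000 cells in 100 uL of matrigel and saline, and tumors were taken at day 28. The sources used here do not give the promoter of the construct, the number of clones or the age and sex of the mice. The labels also do not say that each sample came from its own mouse, so p-values measure only the spread among these 6 samples, part of which may be technical.

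Depth, computed back from the deposited FPKM values, was 16225486 to 22274096 fragments per tumor. Gli2 itself stood at 8.88, 11.1 and 7.96 FPKM in control tumors 1 to 3. In Gli2CA tumors 1 to 3 it was lower, at 3.21, 5.82 and 1.61 FPKM (limma adjusted p = 0.0853, 0.0211 to 0.25 over 20 alternatives). The sources used here do not say whether this row counts RNA of the construct, so it neither bears out nor contradicts the label. Groups are called by their labels throughout. Of 7 melanocyte markers, Sox10 was present at 83.7 to 177 FPKM in NTC and 51.5 to 97.1 in Gli2CA, and Mitf at 8.28 to 10.4 FPKM and 6.08 to 6.49, so that every Gli2CA tumor was below every NTC tumor for Mitf (limma adjusted p = 0.135). Pmel was at 0.673 to 1.96 FPKM over both groups. Mlana, Tyr, Tyrp1 and Dct were at or near 0.

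The bases around the start of transcription are shown first, because a pyrimidine start is the feature that sets this gene class beside the ribosomal protein genes. RefSeq windows on GRCm38.p6, from 250 bases before to 50 bases from the annotated start, matched 9 of the 10 genes, with 10 windows in all since Gas5 has 2. Snhg6 has no entry. The 8 lines give 50 bases each, 5′ to 3′ along the gene, with the annotated start as base 26, and capitals mark the longest unbroken run of C and T within 20 bases of that start.
Gas5 (chr1:161035141-161035190, plus strand): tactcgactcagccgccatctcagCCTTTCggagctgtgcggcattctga
Snhg1 (chr19:8723462-8723511, plus strand): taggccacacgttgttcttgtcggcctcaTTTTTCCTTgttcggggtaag
Snhg3 (chr4:132353662-132353711, minus strand): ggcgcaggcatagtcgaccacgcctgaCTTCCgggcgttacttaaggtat
Snhg5 (chr9:88522873-88522922, minus strand): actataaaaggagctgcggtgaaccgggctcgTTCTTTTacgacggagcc
Snhg8 (chr3:123508312-123508361, minus strand): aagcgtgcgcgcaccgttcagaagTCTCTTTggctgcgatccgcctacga
Snhg12 (chr4:132308653-132308702, plus strand): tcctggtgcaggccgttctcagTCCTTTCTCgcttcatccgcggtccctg
Snhg15 (chr11:6528736-6528785, minus strand): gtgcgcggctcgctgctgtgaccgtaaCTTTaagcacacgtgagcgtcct
Snhg18 (chr15:32244638-32244687, minus strand): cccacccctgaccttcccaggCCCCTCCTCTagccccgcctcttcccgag
The Gas5 line is its second annotated start. Its first window and that of Zfas1, with longest runs of 3 and 4 bases, lie within the antisense genes Zbtb37 and Znfx1 and are not printed.

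A C at the annotated start followed by at least 4 C or T was found in 2 of the 10 windows, Gas5 and Snhg8. The share among all 32851 mouse windows of this table was 2.51%, and among 73 windows of ribosomal protein genes it was 19.2%. A looser pattern, C followed by at least 7 C or T anywhere within 20 bases of the start, was present in Snhg12 and Snhg18, against 12.8% of all windows and 42.5% of ribosomal protein windows. Snhg1 and Snhg5 had runs of 9 and 7 bases that begin with T, and a start that is annotated a few bases away from the true one would be missed. Searched on both strands of the 300 bases, TATAAA was present in 4 windows (Snhg1, Snhg3, Snhg5 and Snhg8; 13.6% of all windows), CACGTG in Snhg15 (7.15%) and CCGGAAG in Snhg3 (8.86%). These 3 motifs do not overlap each other, and a match is a description of the letters and no more.

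Host gene transcripts stood higher in the tumors labelled Gli2CA than in the NTC tumors for 8 of the 9 genes that could be tested, with no overlap between the groups, but no single gene passed the threshold. FPKM counts fragments relative to transcript length and to the total of the library. Fold changes are differences in log2(FPKM + 0.5) fitted with limma, and a call is a Benjamini-Hochberg adjusted p under 0.05 over all 15820 genes with a mean of at least 0.5 FPKM. In that fit 0 of the 9 genes were called, against 0.348% of all tested genes called in either direction and 0.265% called higher. Limma-voom on the recovered fragments also called 0 of 9, against 0.322% called higher, whereas limma with sample weights called 5 of 9 (Zfas1, Snhg1, Snhg5, Snhg6 and Snhg12), against 4.45%. At an unadjusted p under 0.05 in the fit without weights, 8 of 9 were higher and 0 lower, against 12.8% and 14.7% of all tested genes, or 27.5% in either direction. All 3 Gli2CA tumors lay above all 3 NTC tumors for 8 of 9, against 15.9% of all tested genes, and below them for 0 of 9, against 17.9%. All 9 estimates were positive, against 47.4%. The median log2 fold change was 1.26 over the 9 genes and -0.04 over all tested genes. In whole tumors a change in the cells present and a change in RNA per cell cannot be told apart.

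**Figure D1:**
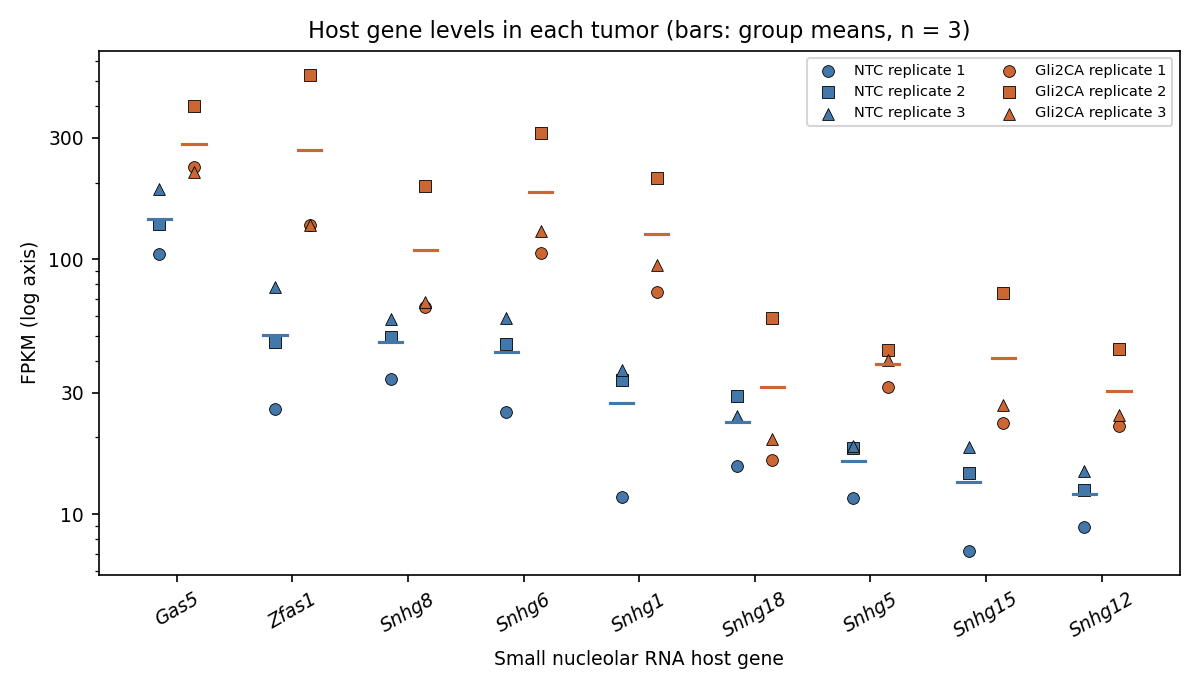
FPKM (log axis) of the 9 tested host genes in each of the 6 tumors; blue marks are NTC, orange marks are Gli2CA, marker shape is the replicate number and bars are group means. Every gene is lowest in NTC replicate 1 and highest in Gli2CA replicate 2, and Snhg18 is the gene whose groups overlap.

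Zfas1, Snhg1 and Snhg6 had the widest differences. Zfas1 (ENSMUSG00000074578, chromosome 2, 167062934 to 167065862, plus strand, GENCODE M21 on GRCm38, as for all positions of genes given here) holds Snord12 and its relatives, and in mouse mammary gland it has been described as a brake on alveolar development. It stood at 25.9, 47.4 and 77.6 FPKM in control tumors 1 to 3 and at 136.1, 530.6 and 136.6 FPKM in Gli2CA tumors 1 to 3. The lowest Gli2CA tumor was 1.75 times the highest NTC tumor, and Gli2CA replicate 2 was 3.89 times the mean of the other two Gli2CA tumors. Its log2 fold change was 2.22 (SE 0.56, 95% interval 0.94 to 3.50, n = 3 per group, limma adjusted p = 0.0774, 0.0314 to 0.252 over 20 alternatives).

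Snhg1 (ENSMUSG00000108414, chromosome 19, 8723475 to 8726443, plus strand) carries Snord22 and 7 further snoRNA genes. Its levels were 11.7, 33.5 and 36.7 FPKM in control tumors and 74.2, 209 and 94.9 FPKM in Gli2CA tumors. It was the gene with the widest gap between the groups, the lowest Gli2CA tumor being 2.02 times the highest NTC tumor. The log2 fold change was 2.20 (SE 0.49, interval 1.08 to 3.32, limma adjusted p = 0.068, 0.0207 to 0.227 over alternatives). Snhg6 (ENSMUSG00000098234, chromosome 1, 9941959 to 9944118, minus strand), the host of Snord87, stood at 25.1, 46.4 and 58.7 FPKM in control tumors and at 105.8, 313.9 and 128.9 FPKM in Gli2CA tumors. Its groups were apart by a factor of 1.80 at their nearest, with a log2 fold change of 1.98 (SE 0.45, limma adjusted p = 0.068, 0.0246 to 0.222 over alternatives).

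Snhg5, Snhg12 and Snhg15 were 2.39 to 2.78 times higher by fitted fold change. Snhg5 (ENSMUSG00000097195, chromosome 9, 88521050 to 88522929, minus strand), the host of Snord50a and Snord50b, was the steadiest of the class. It stood at 11.6, 18.2 and 18.4 FPKM in control tumors and at 31.7, 44.2 and 40.2 FPKM in Gli2CA tumors. Here Gli2CA replicate 2 was 1.23 times the mean of the other two Gli2CA tumors, the smallest such ratio among the 9 genes, and the adjusted p of 0.0636 was the lowest (log2 fold change 1.26, SE 0.26, limma; 0.0227 to 0.232 over alternatives). Snhg12 (ENSMUSG00000086290, chromosome 4, 132308623 to 132311024, plus strand) carries Snora44, Snora61, Snora16a and Snord99. Its values were 8.88, 12.4 and 14.8 FPKM in control tumors and 22.2, 44.5 and 24.5 FPKM in Gli2CA tumors (log2 fold change 1.26, SE 0.31, limma adjusted p = 0.0745, 0.0315 to 0.244 over alternatives). Snhg15 (ENSMUSG00000085156, chromosome 11, 6525591 to 6528760, minus strand), the host of Snora9, stood at 7.17, 14.5 and 18.4 FPKM against 22.7, 73.4 and 26.7 FPKM. The groups did not overlap for either gene, although Gli2CA replicate 1 exceeded NTC replicate 3 by a factor of only 1.23 for Snhg15 (log2 fold change 1.47, SE 0.48, limma adjusted p = 0.105, 0.0374 to 0.324 over alternatives).

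Gas5 and Snhg8 were 1.95 and 2.05 times higher by the fit to all 6 tumors, with groups that nearly touched. Gas5 (ENSMUSG00000053332, chromosome 1, 161034422 to 161038539, plus strand), growth arrest-specific 5, is named for its accumulation in cells that stop growing and is a known target of nonsense-mediated decay. It stood at 104.5, 138 and 189 FPKM in control tumors and at 230.4, 399 and 220.4 FPKM in Gli2CA tumors. The lowest Gli2CA tumor was 1.17 times the highest NTC tumor (log2 fold change 0.96, SE 0.32, limma adjusted p = 0.108, 0.0691 to 0.325 over alternatives). Snhg8 (ENSMUSG00000104960, chromosome 3, 123507552 to 123508404, minus strand), the host of Snora24, stood at 33.9, 49.7 and 58.3 FPKM against 65.3, 194 and 68.2 FPKM. Its nearest tumors differed by a factor of 1.12 (log2 fold change 1.04, SE 0.42, limma adjusted p = 0.156, 0.0769 to 0.412 over alternatives). Without Gli2CA replicate 2 the estimates were 0.53 (SE 0.26) for Snhg8 and 0.69 (SE 0.27) for Gas5.

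Snhg18 was the exception among the tested genes. Snhg18 (ENSMUSG00000096956, chromosome 15, 32240565 to 32244662, minus strand), the host of Snord123, stood at 15.5, 29.1 and 24.3 FPKM in control tumors and at 16.3, 58.7 and 19.8 FPKM in Gli2CA tumors. Gli2CA replicate 2 was the highest tumor, and the other two Gli2CA tumors fell between NTC replicates 1 and 3. The log2 fold change of 0.26 (SE 0.46, interval -0.78 to 1.30, limma adjusted p = 0.738, 0.246 to 0.995 over alternatives) became -0.30 (SE 0.29) without Gli2CA replicate 2. The interval holds both no change and the estimates of Gas5 and Snhg8.

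Snhg3 could not be measured in these libraries. Snhg3 (ENSMUSG00000085241, chromosome 4, 132348014 to 132353686, minus strand) carries Snora73a and Snora73b, which act in the processing of ribosomal RNA precursors. It had 0, 0 and 1 fragments in NTC and 1, 1 and 3 fragments in Gli2CA, under the filter, and no fold change is given. Of its annotated exon bases, 86.3% are shared with exons of other genes, 71.5% with the antisense gene Gm17300 and 13.7% with Rcc1 on the same strand. The sources used here do not say how fragments in shared bases were counted, so its level is uncertain. For the other 9 genes the shared part was 0 to 20.9%, and for most of them it lay in the snoRNA genes inside. For Snhg6 all 127 shared bases were those of the protein-coding gene Mcmdc2. For Zfas1 the shared part also took in 82 bases of Znfx1 and 189 of another RNA gene.

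In order of level, Gas5 led in the NTC tumors at 144 ± 42.5 FPKM (SD, n = 3), a per-length scale in which the length is the mean over annotated transcripts. Zfas1 at 50.3 ± 26.0, Snhg8 at 47.3 ± 12.4 and Snhg6 at 43.4 ± 17.0 FPKM followed and did not differ beyond their spread. Snhg1 at 27.3 ± 13.6 and Snhg18 at 23.0 ± 6.90 FPKM overlapped likewise, as did Snhg5 at 16.1 ± 3.88, Snhg15 at 13.4 ± 5.71 and Snhg12 at 12.03 ± 2.995 FPKM. These are spreads between tumors, and all genes were measured in the same tumors. Within each NTC tumor, Snhg5 exceeded Snhg15 and Snhg12, and Zfas1 exceeded Snhg6. In the tumors labelled Gli2CA, Gas5 at 283 ± 100.2 FPKM and Zfas1 at 268 ± 228 FPKM led, followed by Snhg6 at 183 ± 114 FPKM, Snhg1 at 126 ± 72.7 FPKM and Snhg8 at 109 ± 73.3 FPKM. Zfas1 exceeded Gas5 in Gli2CA replicate 2 and was below it in each of the other 5 tumors.

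The host genes moved together from tumor to tumor, within the groups as well as between them. All 9 tested genes were lowest in NTC replicate 1, against 32.2% of all tested genes, and all 9 were highest in Gli2CA replicate 2, against 21.4%. Both held for 14.7% of all tested genes. The 10 genes together took 0.0193, 0.0311 and 0.0391% of all fragments in NTC replicates 1 to 3, and 0.0549, 0.149 and 0.0591% in Gli2CA replicates 1 to 3. Relative to the NTC mean, the median of the 9 genes on the log2 scale was -0.51, 0.18 and 0.44 in NTC and 0.89, 2.06 and 1.07 in Gli2CA. The control tumors differed among themselves by more than the step from NTC replicate 3 to Gli2CA replicate 1. Without NTC replicate 1 and Gli2CA replicate 2 together, 8 of 9 genes still had positive estimates, against 47.1% of all tested genes, and the median was 0.76. In that fit Snhg1 stood at 1.25 (SE 0.21), Zfas1 at 1.16 (SE 0.27), Snhg6 at 1.15 (SE 0.22) and Snhg5 at 0.94 (SE 0.22), while Snhg12 stood at 0.76 (SE 0.22), Snhg15 at 0.57 (SE 0.23), Gas5 at 0.48 (SE 0.22) and Snhg8 at 0.31 (SE 0.19). That fit called 0 genes of the class (limma adjusted p from 0.0709 for Snhg1 to 0.407 for Snhg8) and 0.265% of all tested genes higher.

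**Figure D2:**
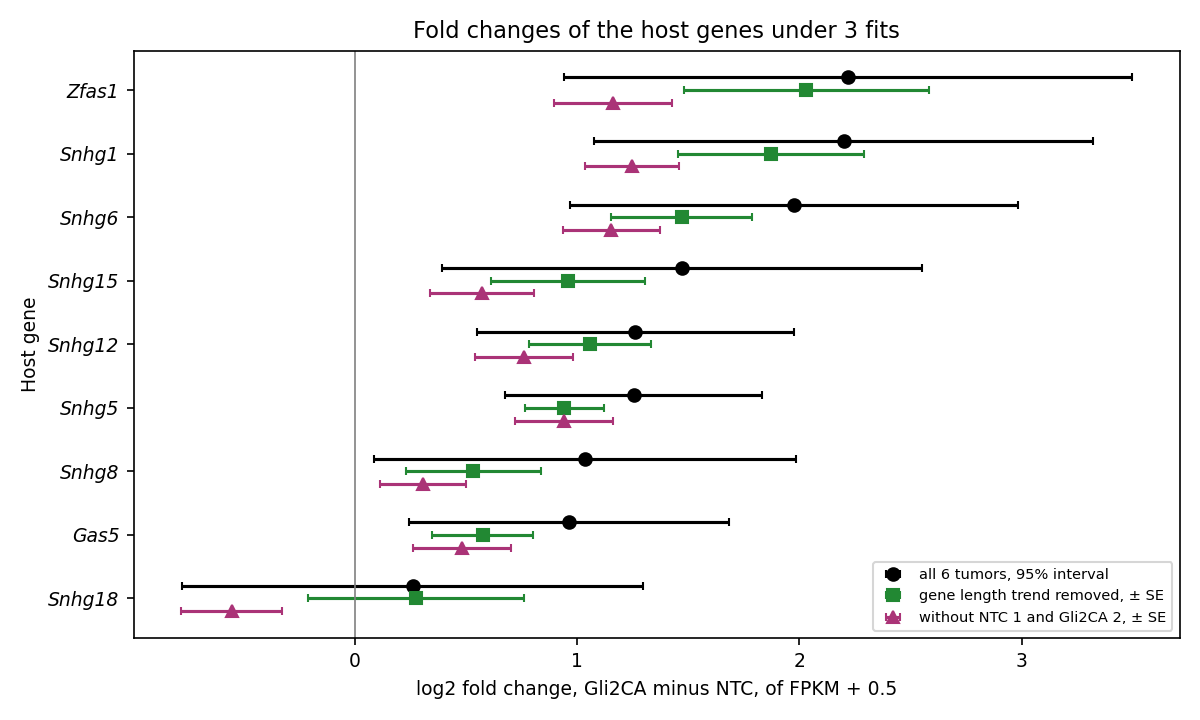
Log2 fold change (Gli2CA minus NTC, FPKM + 0.5) of the 9 tested host genes from all 6 tumors with 95% intervals, with the gene length trend removed and without NTC replicate 1 and Gli2CA replicate 2 (both ± SE). Estimates are smaller under both alternatives for 8 genes and remain positive there, and Snhg18 changes sign without the pair of tumors.

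Transcript length moved with the result. The libraries differed in a trend along length. With all tested genes in 5 equal bins by length, bin 1, up to 910.5 bases, lay at a median of 0.44 (log2 fold change) and bin 5, from 2662 bases, at -0.36. In bin 1 the median deviation was -0.50 in NTC replicate 1 and 0.49 in Gli2CA replicate 2, the same tumors that were the extremes for the host genes. Of the 9 host genes, 6 were in bin 1, Zfas1 (973 bases) and Snhg12 (952 bases) in bin 2 and Snhg18 (1486 bases) in bin 3. With the length trend of each library removed, the median of the class was 0.96, all 9 estimates were positive and 7 of 9 had an unadjusted p under 0.05, against 13.6% of all tested genes higher at that level in the same limma fit, and 0 of 9 were called, against 0.190%. Estimates then were 2.03 (SE 0.55) for Zfas1, 1.87 (SE 0.42) for Snhg1, 1.47 (SE 0.32) for Snhg6 and 0.94 (SE 0.18) for Snhg5. Those for Gas5 and Snhg8 were 0.58 (SE 0.23) and 0.53 (SE 0.30).

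**Figure D3:**
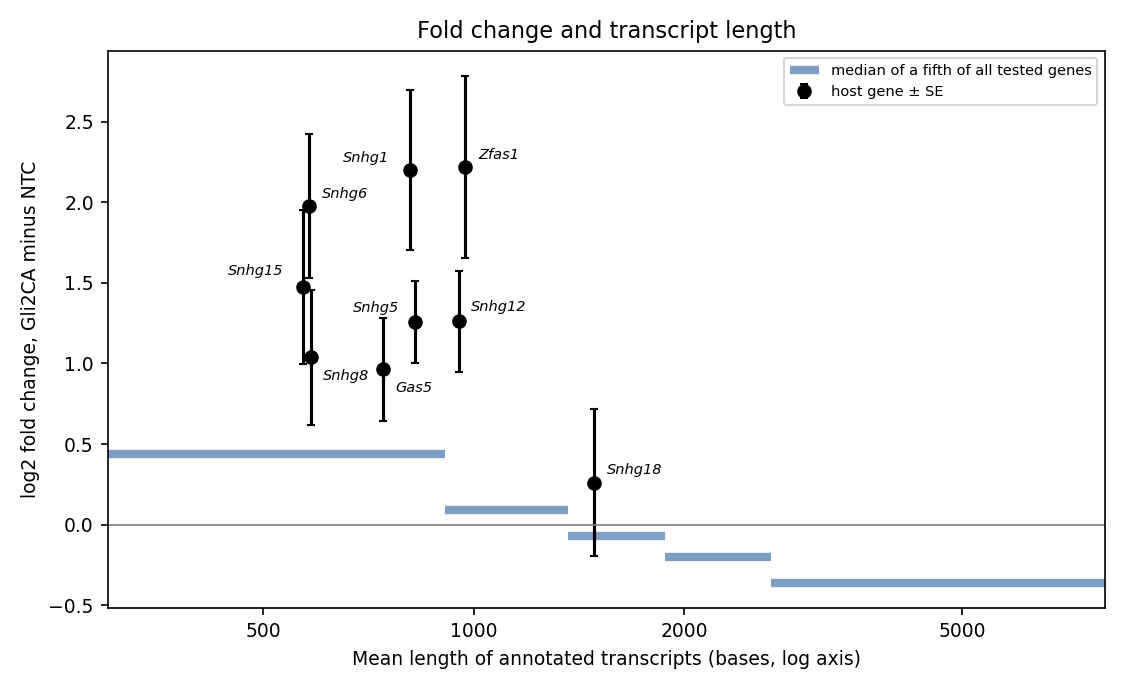
Log2 fold change (± SE) of the 9 tested host genes against the mean length of their annotated transcripts (log axis); blue bars are medians of all tested genes in 5 bins by length, from 0.44 in bin 1 to -0.36 in bin 5. All 9 host genes lie above the bar of their own length, Snhg18 by less than its SE.

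Summed markers of other cells also differed in level between the groups for some cell types and overlapped for others. The sums were not tested, and 0 of the single marker genes were called in limma. Summed FPKM of 4 fibroblast markers was 6295 to 21980 in NTC and 2457 to 4255 in Gli2CA, that of 4 macrophage markers 1070 to 1641 and 749 to 962, and that of 3 endothelial markers 69.3 to 119 and 44.6 to 54.1. The sum of 4 leukocyte markers was 1163 to 1765 and 846 to 1117, and that of 3 keratinocyte markers 3.83 to 5.83 and 23.1 to 36.6. For 6 proliferation markers the sums were 216 to 368 and 371 to 693. All Gli2CA tumors lay above all NTC tumors for 2 of these 6 genes and below them for 0. For 5 T cell markers the sums overlapped, at 179 to 322 and 101 to 248. Yet all Gli2CA tumors lay below all NTC tumors for 4 of these 5 genes and above them for 0. The sums of 3 neutrophil markers were 11.97 to 36.8 and 37.26 to 39.1, with 1 gene separated upward and 1 downward. The 3 skeletal muscle markers summed to 0.160, 0.474 and 606 FPKM in control tumors 1 to 3 and to 349.8, 2.70 and 99.2 FPKM in Gli2CA tumors 1 to 3, which overlap. The part of transcript length, library or cell makeup in the host gene difference was not tested.

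The snoRNA genes inside the hosts were nearly all listed at 0. Libraries were made from poly-A RNA, and mature snoRNAs have no poly-A tail. GENCODE places 34 snoRNA genes within the spans of the 10 hosts, 10 of them in Gas5 and 8 in Snhg1. All 31 that share bases with an annotated exon of their host were at 0 in all 6 tumors, while 2 of the other 3 had fragments. Snord87 in Snhg6 had 0, 2 and 0 fragments in NTC and 2, 0 and 3 in Gli2CA, and Snord123 in Snhg18 had 1, 4 and 2 against 4, 4 and 4. Over the whole table, 325 of 1507 snoRNA genes had any fragment. The values above are those of the host genes' own rows, and the released snoRNAs were not measured. How fragments in shared bases were counted is not known, so snoRNA rows at 0 do not show whether host rows hold such fragments.

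For 4 hosts, a protein-coding gene on the opposite strand started within 427 bases of the host and passed the filter, and these 4 neighbours had negative estimates in the fit to all 6 tumors. Znfx1, an antiviral helicase gene whose start lies 81 bases from that of Zfas1, stood at 44.0, 33.9 and 29.5 FPKM in control tumors and at 23.6, 16.0 and 18.6 FPKM in Gli2CA tumors. It was lower in every Gli2CA tumor, where Zfas1 was higher (log2 fold change -0.87, SE 0.24, limma adjusted p = 0.0885, 0.0401 to 0.274 over alternatives), and with the length trend removed its estimate was -0.50. Slc3a2, the heavy chain of amino acid transporters, starts 106 bases from Snhg1, and stood at 146, 98.1 and 109 FPKM in control tumors and 132 (replicate 1), 65.9 and 98.7 FPKM in Gli2CA tumors. Its groups overlapped (log2 fold change -0.28, SE 0.30, limma adjusted p = 0.551, 0.102 to 0.964 over alternatives). Its mean transcript length, 1017 bases, lies in length bin 2, where the median of all tested genes was 0.09. That of Snhg1, 810 bases, lies in bin 1, where it was 0.44.

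Zbtb37, a zinc finger gene antisense to the first start of Gas5, stood at 1.62, 1.88 and 1.31 FPKM in control tumors and 1.28, 0.794 and 1.30 FPKM in Gli2CA tumors (log2 fold change -0.38, SE 0.28, limma adjusted p = 0.403, 0.263 to 0.949 over alternatives). With the length trend removed its estimate was 0.03, its transcripts averaging 4812 bases. Sema5a, a semaphorin gene that starts 148 bases from Snhg18, stood at 7.31, 28.7 and 6.27 FPKM in control tumors and at 1.87, 3.50 and 2.79 FPKM in Gli2CA tumors. Every Gli2CA tumor was below every NTC tumor (log2 fold change -1.88, SE 0.52, limma adjusted p = 0.0868, 0.0281 to 0.257 over alternatives). Its highest value was that of NTC replicate 2, and without that tumor the estimate was -1.21 (SE 0.32). The log2 ratio of host to neighbour was higher in all 3 Gli2CA tumors than in all 3 NTC tumors for each of the 4 pairs, by 3.08 for Zfas1 over Znfx1, 2.48 for Snhg1 over Slc3a2, 2.14 for Snhg18 over Sema5a and 1.34 for Gas5 over Zbtb37. Each had p = 0.1 in an exact two-sided permutation test, the smallest that 3 against 3 allows, and 0.1 after adjustment over the 4 pairs. For Zfas1 with Znfx1 and Gas5 with Zbtb37, host and neighbour each separated the groups in opposite directions, so their ratios had to separate too. The share of other gene pairs with separated ratios was not computed. These ratios keep the length trend. With it removed, host and neighbour stood at 2.03 and -0.50 for Zfas1 and Znfx1, 1.87 and -0.44 for Snhg1 and Slc3a2, 0.28 and -1.51 for Snhg18 and Sema5a, and 0.58 and 0.03 for Gas5 and Zbtb37. Rcc1, which overlaps Snhg3 on the same strand, averaged 20.1 ± 0.529 and 25.3 ± 8.09 FPKM (SD, n = 3 each), and Mcmdc2, whose end overlaps Snhg6, had 0 to 4 fragments per tumor.

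**Figure D4:**
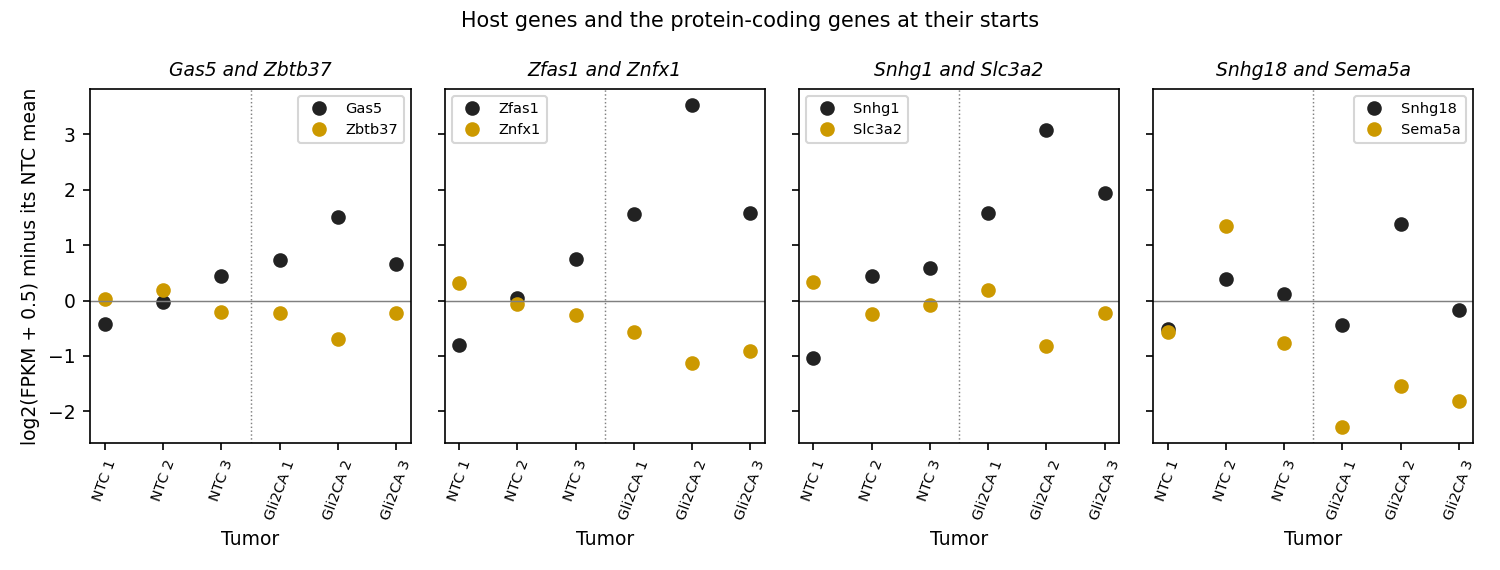
Log2(FPKM + 0.5) of 4 host genes (black) and of the protein-coding gene at or over their start (yellow) in each of the 6 tumors, each gene relative to its own NTC mean. Zfas1 and Snhg1 lie above 1.5 in all Gli2CA tumors, while Znfx1 lies below 0 there and Slc3a2 lies on both sides of 0.

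Other noncoding snoRNA hosts followed the same direction. Of 14 listed symbols, 8 were in the table and 5 passed the filter. In limma and limma-voom 0 of the 5 were called. At an unadjusted p under 0.05, 5 of 5 were higher, against 12.8% of all tested genes, with a median log2 fold change of 1.52. With the length trend removed the median was 1.09, and 5 of 5 were higher at that level, against 13.6%. Snhg20 stood at 3.77, 11.2 and 9.14 FPKM in control tumors and 15.2 (replicate 1), 61.3 and 15.6 FPKM in Gli2CA tumors, and Snhg10 at 1.68, 6.36 and 3.85 against 8.18, 22.9 and 9.28 FPKM. Epb41l4aos had a log2 estimate of 1.52 (SE 0.47), Dancr of 1.29 (SE 0.44) and Snhg17 of 0.89 (SE 0.29). The groups did not overlap for any of the 5, against 15.9% of all tested genes with all Gli2CA tumors higher. Snhg9, Snhg11 and Snhg14 lay under the filter.

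Of 30 tested protein-coding genes that host snoRNAs, 28 had positive and 2 had negative estimates, Ncl at -0.57 (SE 0.33) and Eef2 at -0.37 (SE 0.33), both named after their values were seen. In limma and limma-voom 0 were called. At an unadjusted p under 0.05, 21 were higher and 0 lower, against 12.8% and 14.7% of all tested genes, and the median was 0.85. With the length trend removed, 17 were higher at that level, against 13.6%, and the median was 0.62. Rpl13a, a ribosomal protein gene with several intronic snoRNAs, averaged 60.6 ± 26.0 FPKM in control tumors and 187 ± 61.8 FPKM in Gli2CA tumors (SD, n = 3 each), and Rpl5 849 ± 308 and 2629 ± 1084 FPKM. Npm1, the nucleolar chaperone nucleophosmin, had a log2 estimate of 1.07 (SE 0.26) and Rack1, a ribosome-bound scaffold, of 1.13 (SE 0.31). Of 79 tested ribosomal protein genes, all 79 had positive estimates, 66 were higher (background 12.8%) and 0 lower at an unadjusted p under 0.05 and 0 were called, with a median of 1.10, or 0.73 with the length trend removed. The ribosomal protein genes among the protein-coding hosts, such as Rpl13a and Rpl5, are counted in both lists, so these counts are not separate. Within the list of ribosomal protein genes Rpl12 stood at 1.70 (SE 0.39) and Rpl10a at 1.31 (SE 0.34).

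The machinery around snoRNAs was less uniform, in a list that shares some members with the protein-coding hosts. Of 18 tested core proteins and assembly factors of the snoRNA particles, 0 were called, 6 were higher and 0 lower at an unadjusted p under 0.05 (12.8% and 14.7% of all tested genes), and the median was 0.37, or 0.16 with the length trend removed. Znhit3, an assembly factor, had an estimate of 1.60 on the log2 scale (SE 0.48), Nufip1 one of 0.69 (SE 0.26), Snu13, which binds the snoRNA kink-turn, one of 0.68 (SE 0.26) and Nhp2 one of 0.71 (SE 0.28). Of 24 genes of ribosomal RNA synthesis and early processing, 0 were called and 5 were higher at an unadjusted p under 0.05, against the same 12.8%, with a median of 0.03 against -0.04 over all tested genes. These counts lie nearer the background than those of the host genes, a difference that was not tested. Taf1d, itself a host of intronic snoRNAs, had a log2 estimate of 1.36 (SE 0.42), Nip7 of 1.02 (SE 0.28), Polr1d, an RNA polymerase subunit, of 1.01 (SE 0.33) and Taf1b of 0.66 (SE 0.23).

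Factors of nonsense-mediated decay, which degrades spliced host transcripts, had counts at an unadjusted p under 0.05 near those of all tested genes. Estimates were negative for 13 of 15, against 8319 of all 15820 tested genes. All Gli2CA tumors lay below all NTC tumors for 5 of 15, against 17.9%, and above them for 1, against 15.9%. Of 15 tested, 0 were called, 3 were lower and 1 was higher at an unadjusted p under 0.05, against 14.7% and 12.8% of all tested genes, and the median was -0.35, or -0.16 with the length trend removed, when 1 was lower at that level. Upf2 averaged 12.82 ± 1.497 FPKM in control tumors and 8.19 ± 1.25 FPKM in Gli2CA tumors (SD, n = 3 each; log2 fold change -0.62, SE 0.22). Smg6, the endonuclease of the pathway, stood at -0.76 (SE 0.29), Smg9 at -0.63 (SE 0.26) and Magoh, an exon junction protein, at 0.79 (SE 0.27). Of 17 tested genes of mTORC1 and the factors that act on pyrimidine starts, 0 were called. At an unadjusted p under 0.05, 2 were higher and 4 lower, again beside 12.8% and 14.7% of all tested genes, with a median of -0.22. With the length trend removed the median was 0.05. Then 4 were higher and 2 lower at that level, beside 13.6% of all tested genes higher and 2046 of 15814 lower. Eif4ebp1, a translation repressor under mTORC1 control, stood at 36.4 ± 4.25 FPKM in control tumors and 78.3 ± 24.9 FPKM in Gli2CA tumors, and its paralog Eif4ebp2 at 30.03 ± 6.571 and 13.4 ± 4.89 FPKM. Deptor, an mTOR inhibitor, had a log2 estimate of -0.96 (SE 0.24) and Tsc2 of -0.79 (SE 0.30). Mtor itself stood at -0.62 (SE 0.255) and Rptor at -0.60 (SE 0.278), both named after their values were seen. Of the 17 estimates, 8 were positive and 9 negative.

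The genes outside the class whose profile over the 6 tumors was nearest to the mean profile of the 9 hosts were 5 protein-coding genes. By mean absolute difference of centred log2 values they were Tbca (0.0405), Lsm5 (0.0467), Rps18 (0.0497), 1810022K09Rik (0.0514) and Bola2 (0.0566). Tbca, a tubulin folding cofactor, stood at 132 (replicate 1), 232 and 288 FPKM in control tumors and at 373 (replicate 1), 909 and 437 FPKM in Gli2CA tumors. Rps18, a ribosomal protein gene, stood at 774, 1407 and 1644 FPKM against 2226, 5344 and 2690 FPKM.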

How the data were processed

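The authors deposited 1 table of FPKM for 6 tumors; per the labels' protocols, poly-A RNA was fragmented and primed with random hexamers. The sources used here do not give the aligner, counting tool, build or strand setting, and the named kit is not described as strand-specific, so antisense genes may share fragments. Gene IDs were joined to GENCODE M21 on GRCm38 (54495 of 54532 matched). Multiplied by mean transcript length, 97.3% of low values of genes with several transcripts were whole fragments within 0.1 (20% by chance), which gave fragments and depth. Genes averaging 0.5 FPKM or more were tested on log2(FPKM + 0.5) with limma 3.58.1 (trended eBayes) under R 4.3.3, two-sided, Benjamini-Hochberg adjusted over all tested genes, and the fit was tested on simulated data. A pseudocount understates changes of low genes. Named genes were the 10 hosts, Gli2, neighbours and tested members of the other noncoding hosts. The 4 smallest p per further list and the 5 nearest profiles were also named. Gm17300, Ncl, Eef2, Mtor, Rptor and the markers other than Gli2 are outside that rule. Members and lists were chosen with earlier results of these data known. Alternatives were 2 pseudocounts, 2 filters, 3 scalings, sample weights, a replicate block, removal of length or GC trends (loess), limma-voom and each sample left out. After seeing the data, the block with the length trend removed and the fit without 2 samples were added. Tables were made with Python 3.11.15, pandas 2.3.3 and scipy 1.17.1, plots with matplotlib 3.10.9. One further item of the cell line's genotype is not reported here.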

Additional observations from a re-analysis of the deposited data

How the results depend on the processing

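Among the host genes 0 were called in 17 of 20 alternatives; 5 were called with sample weights (Zfas1, Snhg1, Snhg5, Snhg6 and Snhg12, against 4.45% of all tested genes called higher). With a replicate block 6 were called (these 5 and Snhg15, against 5.70%), and with the block and the length trend removed 3 were (Snhg1, Snhg5 and Snhg6, against 5.30%). The labels share replicate numbers. Deviations of same-numbered tumors from their group means correlated at 0.353, 0.221 and 0.024, and those of differently numbered tumors at -0.285 to 0.078. The main fit did not use the numbers as a pairing, and whether they mark one was not tested. The count over all genes was 55; it was 145 with a filter at a mean FPKM of 1, 3 with no filter, 308 with protein-coding rescaling, 36 with quantile normalization, 105 with limma-voom, 1588 with sample weights, 1928 with the replicate block and 1690 with the block and the length trend removed. Leaving out 1 tumor gave 4 to 97 calls (4 without NTC replicate 2, 97 without Gli2CA replicate 2) and 0 among the hosts. The median log2 fold change of the 9 hosts was 1.26 in the fit to all 6 tumors. Over the alternatives it ran from 0.76 without NTC replicate 1 and Gli2CA replicate 2 to 1.45 without Gli2CA replicate 1. Snhg18 was at -0.19 with sample weights, -0.30 without Gli2CA replicate 2 and -0.55 without NTC replicate 1 and Gli2CA replicate 2; Slc3a2 was at 0.14 in the last of these, and Zbtb37 at 0.029 with the length trend removed, with or without the block. Leaving out 1 tumor each gave -0.30 to 0.61 for Snhg18 and -0.52 to -0.02 for Slc3a2. The cause was not tested. Protein-coding rescaling moved the median of all genes from -0.04 to -0.22, and 9 of 9 hosts stayed positive. The planned quasi-likelihood count test was not run, since FPKM was deposited.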
